A study of Mus musculus with 9 samples.

Results

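The first 2 days of nutrient and oxygen deprivation were examined in 6620c1, a cell line from a mouse pancreatic tumor. RNA sequencing libraries of day 0 and day 2, 3 of each and 6 of the 9 libraries of the series, were compared across every gene with at least 1 TPM in at least 3 of the 9 libraries. That choice kept 12693 of 24493 gene rows, and the other 11800 were too low to test. TPM gives each gene's share of a library's RNA after correction for transcript length.

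Per the labels, cells were grown in a poor DMEM whose glucose was 2.5 mM, whose fetal calf serum was 0.5% and whose amino acids were at 20% of the standard level, described as the deprivation of nutrients and oxygen, with no other agent. The labels give that medium for the day 0 libraries as well, name no oxygen level, and do not say how the cells were kept before day 0. A day 2 library of undeprived cells was not analysed here, so the effects of the medium, of low oxygen and of 2 days in culture cannot be told apart. The data columns of all 9 libraries carry the prefix WT, whose meaning the labels do not give. The data come from a single cell line, and the labels do not say whether the 3 libraries of a day came from separate cultures. The p-values therefore measure the spread between these libraries, which may be technical. Read depth is unknown, since TPM keeps no read totals, and a lower level of a gene can mean fewer cells that express it or less of its RNA in each cell, which these bulk libraries cannot tell apart.

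Cells that run short of oxygen stabilise the HIF transcription factors, which raise genes for glucose use, blood vessel growth and matrix formation. Shortage of amino acids, glucose and growth factors in turn slows protein synthesis, lowers the building of ribosomes and halts the cell cycle, and genes under E2F and the DREAM complex, which serve DNA replication and mitosis, then go down together. Pancreatic tumors are known for a poor blood supply, so their cells often face both shortages. These sentences are background and were not tested here.

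Markers of pancreatic duct epithelium were present on both days. Levels of the keratin genes Krt7, Krt8, Krt18 and Krt19 were at least 454 TPM in all 6 libraries, while the epithelial adhesion gene Epcam reached no more than 2.80 TPM and the claudin gene Cldn4 no more than 0.445 TPM. The summed level of the 10 ductal markers ran from 11061 to 11699 TPM at day 0 and from 5565 to 7755 TPM at day 2. Of 9 ductal markers tested, 5 fell and 1 rose. The duct transcription factor gene Sox9 rose from 8.48 ± 1.604 to 31.8 ± 6.39 TPM, and the mucin gene Muc1 fell from 198 ± 9.04 to 70.03 ± 26.5 TPM (SD, n = 3). Markers of other cells were at or near 0 on both days. All 6 endocrine and all 6 endothelial markers stayed under 1 TPM in all 6 libraries, as did 6 of 8 acinar, 7 of 8 fibroblast and 7 of 8 leukocyte markers. The summed fibroblast markers ran from 0.205 to 0.273 TPM at day 0 and from 1.03 to 3.12 TPM at day 2, and the leukocyte markers from 2.29 to 2.63 and from 3.73 to 5.39 TPM. Acinar markers summed to at most 1.55 TPM at day 0 and ran from 1.22 to 2.98 TPM at day 2. The acinar gene Cela1 rose from 0.395 ± 0.322 to 1.79 ± 1.06 TPM and the macrophage gene Cd68 from 2.201 ± 0.1499 to 3.703 ± 0.943 TPM, both near the floor, and under quantile normalization neither passed (limma, adjusted p = 0.0928 and 0.193). Their part in the results below was not tested.

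Deprivation for 2 days went with a change of level in most genes. Of the genes tested 3438, or 27.1%, were higher at day 2 and 4046, or 31.9%, were lower (limma on log2(TPM + 1), adjusted p under 0.05). Together these made 59.0% of the genes tested. Of all genes tested, 31.7% had every day 2 library above every day 0 library, and 34.8% had every day 2 library below. Most changes were small: the median log2 fold change was 0.84 among the genes that rose and -0.90 among those that fell, and the 5th and 95th percentiles of all tested genes were -1.70 and 1.46. Changes of at least 2-fold numbered 1288 upward (10.1%) and 1705 downward (13.4%), changes of at least 4-fold 232 (1.83%) and 387 (3.05%), and changes of at least 16-fold 20 (0.158%) and 45 (0.355%). The downward side was the larger at every size.

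Because TPM are shares of a library, the balance of the 2 directions moved with the scaling. Of all calls 45.9% were upward in the TPM as deposited. The upward share was 56.9% when the 20 most abundant rows were removed and the rest rescaled, 52.1% with median-of-ratios scaling and 51.5% with quantile normalization. Removal of the abundant rows shifted the median log2 fold change of all genes from -0.02 to 0.15. Directions below are therefore given as changes in the share of the library's RNA, and a group's median is set beside these values.

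**Figure D1:**
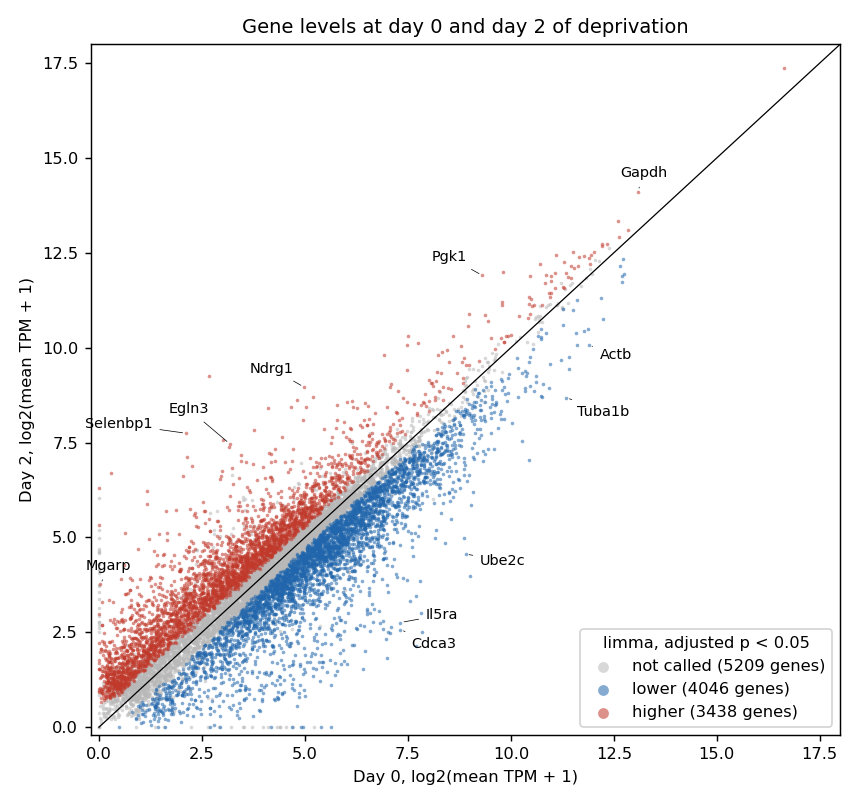
Mean level of each of the 12693 tested genes at day 0 (horizontal) and day 2 (vertical), as log2(mean TPM + 1) of 3 libraries. Red points are the 3438 genes called higher and blue points the 4046 called lower (limma, adjusted p under 0.05), grey points were not called, and the line marks equal levels. Il5ra, Cdca3 and Ube2c lie far below the line and Selenbp1, Egln3 and Ndrg1 far above it.

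The direction of change went with the abundance of the gene. Among the 2053 genes with a mean under 3 TPM over the 6 libraries, 36.8% rose and 10.3% fell. Among the 909 genes with a mean between 100 and 300 TPM the order turned, with 14.3% that rose and 58.1% that fell. Above 1000 TPM 45.7% of 127 genes rose and 27.6% fell. The low and the very abundant genes thus leaned upward and the well expressed middle downward, in the TPM as deposited. The filter bears on the low genes. A gene near 0 at day 0 could pass it through its day 2 or day 14 libraries. A gene near 0 at both later times could pass only through its day 0 libraries. With the filter set at a mean of at least 5 TPM, 39.9% of calls were upward, against 45.9%. How much of the upward lean of low genes came from the filter was not tested.

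Among the named genes with the largest rises, several are known responders to low oxygen. Egln3 encodes a prolyl hydroxylase that marks HIF proteins for destruction and is itself a HIF target. It stood at 9.75, 6.84 and 7.47 TPM at day 0 and 183, 165 and 181 TPM at day 2. Vegfa, the growth factor that draws in blood vessels, stood at 24.8, 22.6 and 26.1 TPM at day 0 and 411, 340.1 and 286 TPM at day 2. Ndrg1, a stress-induced gene, stood at 36.9, 26.6 and 28.2 TPM at day 0 and 557, 451 and 482 TPM at day 2. Day 0 replicate 1 was the highest of its day for Egln3 and Ndrg1. As the naming rule required, every day 2 library lay above every day 0 library for Egln3, Vegfa and Ndrg1. Their log2 fold changes were 4.31 (limma, SE 0.15, adjusted p = 1.94e-07), 3.75 (SE 0.15, adjusted p = 3.09e-07) and 3.99 (SE 0.28, adjusted p = 4.28e-06). Pdk1, the kinase that holds pyruvate out of the mitochondrial oxidation route, rose from 9.896 ± 1.33 to 129 ± 2.71 TPM. Plod2, which hydroxylates lysines of collagen, rose from 6.78 ± 0.953 to 96.4 ± 4.52 TPM. Mgarp, a mitochondrial protein gene induced in hypoxia, stood at 0.0788, 0 and 0 TPM at day 0 and 12.8, 7.84 and 17.2 TPM at day 2. In 2 of the 3 day 0 libraries Mgarp was listed at 0, and no day 2 library was below 7.84 TPM.

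Selenbp1, which encodes a methanethiol oxidase, had the largest rise among the genes named here. It stood at 4.02, 3.09 and 2.9001 TPM at day 0 and 259.8, 125 and 255 TPM at day 2. Day 2 replicate 2 was the lowest of its day and still lay far above all day 0 libraries. The log2 fold change was 5.56 (limma, SE 0.36, adjusted p = 3.06e-06). Ero1l, the oxidase that drives disulfide formation in the endoplasmic reticulum, stood at 15.6, 16.2 and 16.6 TPM at day 0 and 273, 396 and 343 TPM at day 2, with a log2 fold change of 4.29 (limma, SE 0.17, adjusted p = 3.05e-07). Aldh1l2, a mitochondrial enzyme of folate metabolism, stood at 1.78, 2.596 and 1.92 TPM at day 0 and 34.2, 71.8 and 47.04 TPM at day 2. Day 2 replicate 2 was the highest for Ero1l and Aldh1l2, and no libraries of the 2 days overlapped, as the naming rule required.

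Secreted, growth-suppressing and membrane-associated products were also among the large rises. Angptl6, a secreted angiopoietin-like protein, rose from 2.69 ± 0.794 to 51.6 ± 16.3 TPM, with a log2 fold change of 3.81 (limma, SE 0.30, adjusted p = 9.66e-06). Ypel3, a growth suppressor induced by p53, rose from 6.93 ± 1.71 to 107 ± 16.8 TPM. Pnrc1, a nuclear receptor coactivator, rose from 8.39 ± 3.08 to 113 ± 39.6 TPM, with the day 2 libraries at 157, 103 and 79.2 TPM. The cytochrome P450 gene Cyp2s1 rose from 35.5 ± 6.02 to 412 ± 87.6 TPM. Unc13a, known for priming vesicles at synapses, rose from 0.932 ± 0.128 to 24.7 ± 6.35 TPM, and Tcp11l2 rose from 1.31 ± 0.526 to 30.1 ± 0.792 TPM. All 15 named rises had log2 fold changes between 3.49 and 5.56.

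The 15 largest falls among the genes named here were mainly genes of DNA replication and mitosis. Cdca3, which helps trigger entry into mitosis, stood at 142, 163 and 169.6 TPM at day 0 and 4.396, 5.73 and 4.73 TPM at day 2. Mcm5, a subunit of the replicative helicase, stood at 121, 132 and 143 TPM at day 0 and 4.202, 5.297 and 4.34 TPM at day 2. Cenpa, the histone H3 variant of centromeres, stood at 109, 138 and 139 TPM at day 0 and 3.66, 4.68 and 5.61 TPM at day 2. For these genes the highest day 2 library held a small fraction of the lowest day 0 library, and the libraries of a day lay close together. The log2 fold changes were -4.74 (limma, SE 0.14, adjusted p = 1.88e-07), -4.57 (SE 0.12, adjusted p = 1.88e-07) and -4.52 (SE 0.20, adjusted p = 3.95e-07). Ube2c, the ubiquitin-conjugating partner of the anaphase-promoting complex, had the highest day 0 level of the 15 and stood at 419.7, 494 and 515 TPM at day 0 and 17.1, 25.8 and 25.04 TPM at day 2. Further named falls were the mitotic kinase genes Aurkb, Plk1 and Pbk, the cytokinesis motor Kif20a, the topoisomerase gene Top2a and the proliferation marker Mki67. The transcription factor genes Mybl2 and E2f8 and the PCNA-binding factor Pclaf were on the list as well. E2f8, a repressor in the E2F family, went from 26.999 ± 5.95 to 0.476 ± 0.0787 TPM, and Mki67 from 61.1 ± 9.52 to 2.32 ± 0.513 TPM.

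Neither Il5ra nor Pcolce2 is known as a cell cycle gene, yet both stood among these falls. Il5ra, the alpha chain of the interleukin-5 receptor, stood at 116, 178 and 182 TPM at day 0 and 3.595, 6.03 and 7.67 TPM at day 2. Day 0 replicate 1 was the lowest of its day, and day 2 replicate 1 was also the lowest of its day. The log2 fold change was -4.58 (limma, SE 0.30, adjusted p = 2.9e-06). Pcolce2, an enhancer of procollagen processing, fell from 63.6 ± 2.15 to 2.195 ± 0.491 TPM, a log2 fold change of -4.35 (limma, SE 0.22, adjusted p = 7.64e-07).

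**Figure D2:**
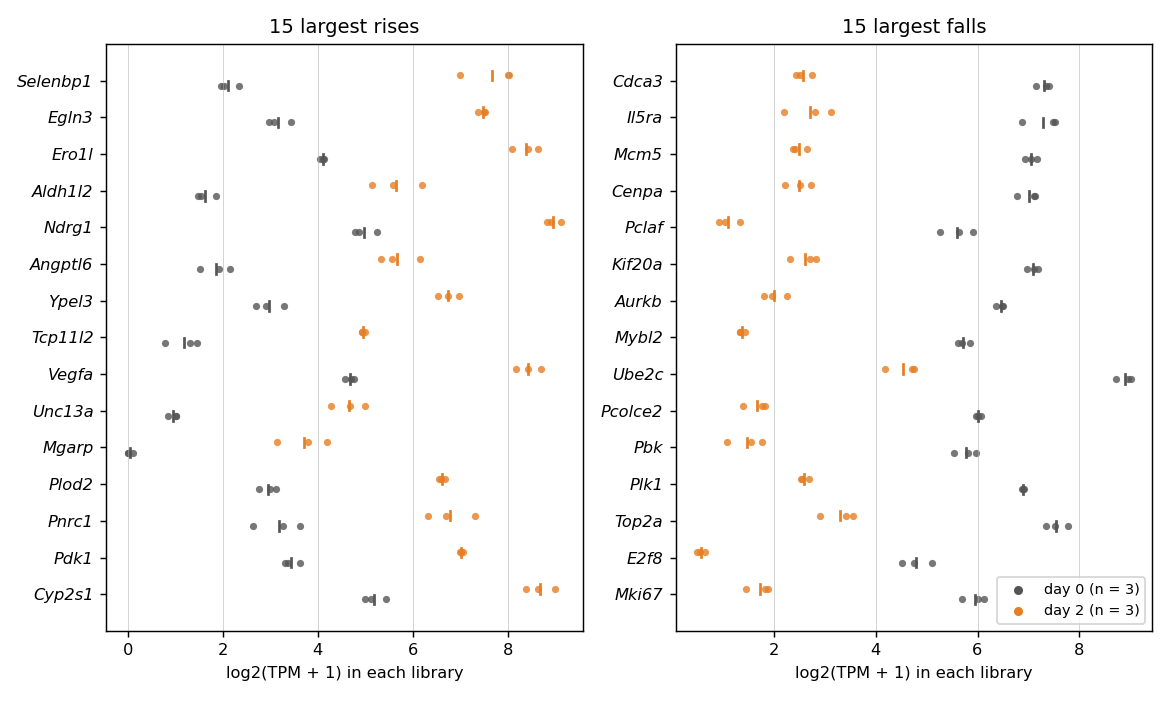
Level of the 15 genes with the largest rises (left) and the 15 with the largest falls (right) among the genes named by rule, as log2(TPM + 1). Each point is 1 library (grey day 0, orange day 2, n = 3) and the tick marks the mean. The rule took only genes without overlap, so no day 2 point reaches the day 0 points of its gene.

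Promoter windows are printed for 3 genes of each direction, since they stand for genes that moved together and show what sequence lies before them. They are the largest rises and falls for which the RefSeq table used here (GRCm38.p6) held exactly 1 window of 300 bases, from 250 before to 50 after the start. Of the 15 rises 9 and of the 15 falls 12 had exactly 1 such window. Motifs were searched on both strands. They included ACGTG, a form of the core of the hypoxia response element, and other forms of that core were not searched. The other motifs were TTTGAA and TTCGAA (the CHR element of late cell cycle genes), CCAAT (the CCAAT box), TTTCGCGC, TTTGGCGC and TTTCCCGC (E2F sites) and TGATGCAA (a CEBP-ATF response element). Capitals mark every match, and sequences run 5′ to 3′ on the strand of the gene.
Selenbp1, chr3:94932833-94933132, plus strand: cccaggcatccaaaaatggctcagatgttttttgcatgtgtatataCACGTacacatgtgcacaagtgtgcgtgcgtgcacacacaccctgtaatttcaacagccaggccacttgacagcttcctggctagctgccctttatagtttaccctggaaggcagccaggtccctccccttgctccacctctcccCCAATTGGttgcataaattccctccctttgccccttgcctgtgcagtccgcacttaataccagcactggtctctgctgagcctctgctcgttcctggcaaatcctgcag
Egln3, chr12:54203825-54204124, minus strand: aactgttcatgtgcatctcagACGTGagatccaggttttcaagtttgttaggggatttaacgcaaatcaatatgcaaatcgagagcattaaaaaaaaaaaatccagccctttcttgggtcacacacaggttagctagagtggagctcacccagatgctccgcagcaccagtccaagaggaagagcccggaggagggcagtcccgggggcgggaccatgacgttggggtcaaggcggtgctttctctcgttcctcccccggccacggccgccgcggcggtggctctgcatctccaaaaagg
Angptl6, chr9:20879661-20879960, minus strand: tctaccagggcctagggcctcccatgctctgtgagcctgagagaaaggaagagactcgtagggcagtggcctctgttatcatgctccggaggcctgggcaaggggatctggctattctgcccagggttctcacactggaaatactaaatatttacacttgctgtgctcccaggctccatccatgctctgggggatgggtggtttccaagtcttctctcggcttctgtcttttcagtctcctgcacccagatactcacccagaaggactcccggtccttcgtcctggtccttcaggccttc
Cdca3, chr6:124829926-124830225, plus strand: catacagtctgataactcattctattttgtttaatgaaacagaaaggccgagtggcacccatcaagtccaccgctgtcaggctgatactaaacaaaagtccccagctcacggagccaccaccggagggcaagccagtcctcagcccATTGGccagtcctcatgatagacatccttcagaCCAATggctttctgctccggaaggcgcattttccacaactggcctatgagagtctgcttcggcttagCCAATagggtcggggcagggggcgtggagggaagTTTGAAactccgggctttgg
Il5ra, chr6:106748988-106749287, minus strand: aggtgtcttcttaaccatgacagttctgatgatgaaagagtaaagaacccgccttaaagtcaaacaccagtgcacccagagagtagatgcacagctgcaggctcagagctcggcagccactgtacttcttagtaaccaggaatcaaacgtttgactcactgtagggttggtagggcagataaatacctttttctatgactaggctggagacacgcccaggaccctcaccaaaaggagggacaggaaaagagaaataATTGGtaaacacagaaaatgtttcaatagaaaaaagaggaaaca
Mcm5, chr8:75109259-75109558, plus strand: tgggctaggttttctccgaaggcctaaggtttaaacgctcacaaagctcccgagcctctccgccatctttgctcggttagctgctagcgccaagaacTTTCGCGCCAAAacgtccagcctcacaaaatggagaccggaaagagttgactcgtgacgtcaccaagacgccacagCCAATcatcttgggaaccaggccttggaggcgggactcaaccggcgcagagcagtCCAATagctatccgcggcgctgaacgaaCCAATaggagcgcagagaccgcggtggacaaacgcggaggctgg

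The windows of Selenbp1 and Egln3 each held 1 match to ACGTG, a motif found in 19.6% of all 32851 windows of the table. The window of Angptl6 held none of the motifs searched. Selenbp1 also held 2 overlapping CCAAT matches, on opposite strands. CCAAT stood in 37.4% of all windows and was matched 3 times before Cdca3, 1 time before Il5ra and 3 times before Mcm5. Cdca3 held 1 match to TTTGAA, which 17.9% of all windows hold. Mcm5 held 1 match to TTTCGCGC and 1 to TTTGGCGC, which overlap on opposite strands and occur in 0.323% and 0.514% of all windows. TTCGAA, TTTCCCGC and TGATGCAA, at 1.56%, 1.07% and 0.895% of all windows, matched none of these 6. A match is a run of letters in the window and no measure of binding. Motif shares of the genes that rose or fell are not compared, because only 68.5% of the genes higher by at least 4-fold and 74.7% of those lower by at least 4-fold had a window.

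A larger share of all TPM lay in few rows in each of the 3 day 2 libraries, though 3 libraries a day cannot give a p under 0.10. The 100 most abundant rows held 41.6%, 38.8% and 39.6% of all TPM in the day 0 libraries and 50.8%, 48.7% and 54.5% in the day 2 libraries. All day 2 libraries lay above all day 0 libraries (40.0% ± 1.43 and 51.3% ± 2.95, SD, n = 3; exact permutation test, two-sided, p = 0.10, the smallest it allows, and adjusted p = 0.117 over 14 such summaries). At day 0 212 ± 22.9 rows held 50% of all TPM, and at day 2 93 ± 19.1 rows did. Rows with a microRNA name held 11.1% ± 1.56 at day 0 and 18.5% ± 4.94 at day 2, with day 2 replicate 3 at 24.1%. Most of that share lay in a single row. The most abundant row held 11.3%, 8.27% and 10.8% of all TPM in the day 0 libraries and 14.6%, 13.2% and 22.5% in the day 2 libraries. Without the 20 most abundant rows, microRNA names held 1.22% ± 0.0669 at day 0 and 2.37% ± 0.0502 at day 2. Without microRNA, small nucleolar and structural RNA rows the 100 most abundant rows still held 34.5% ± 0.970 at day 0 and 42.7% ± 0.648 at day 2. The count of rows at 1 TPM or more was 11595 ± 33.5 on day 0 and 12060 ± 26.1 on day 2, and that of rows at 100 TPM or more was 1442 ± 50.2 and 1095 ± 90.7. Of the 14 summaries 12 reached the smallest p.

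**Figure D3:**
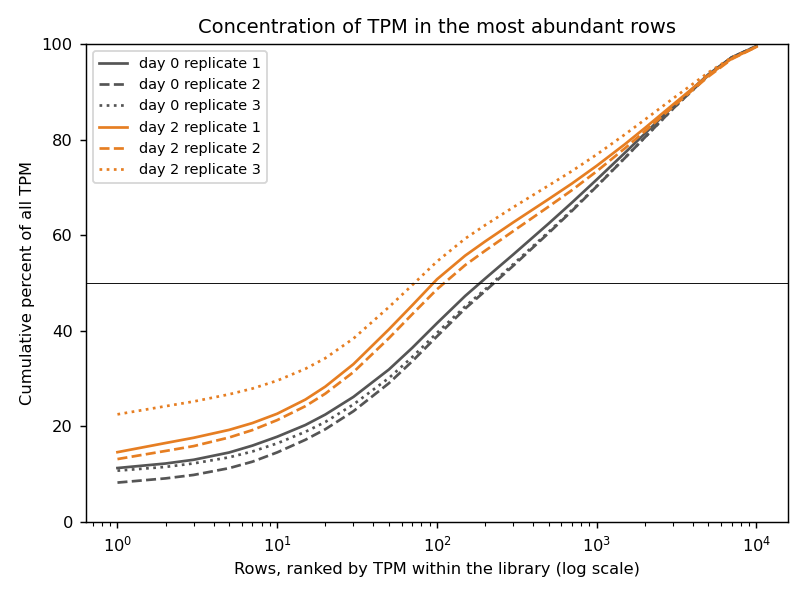
Cumulative percent of all TPM (vertical) held by the most abundant rows of each library, ranked from the highest (horizontal, log scale). Grey lines are the 3 day 0 libraries and orange lines the 3 day 2 libraries, and the thin line marks 50%. Day 2 lines reach 50% after 73 to 111 rows and day 0 lines after 186 to 228 rows.

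Of the 10 named gains in TPM 5 were enzymes of glycolysis. Pgk1, phosphoglycerate kinase, stood at 607, 626 and 661 TPM at day 0 and 3828, 3740.4 and 3916 TPM at day 2. Aldoa, aldolase A, stood at 1009, 913 and 768 TPM at day 0 and 4646, 3914 and 3695 TPM at day 2. Gapdh, the glyceraldehyde-3-phosphate dehydrogenase often used as a loading control, stood at 9451, 8771 and 7844 TPM at day 0 and 19120.2, 16970.3 and 17038 TPM at day 2. All day 2 libraries lay above all day 0 libraries, and the Pgk1 libraries of a day hardly differed. The log2 fold changes were 2.60 (limma, SE 0.10, adjusted p = 3e-07), 2.19 (SE 0.12, adjusted p = 1.25e-06) and 1.03 (SE 0.10, adjusted p = 2.87e-05). The Gapdh rise was not called under quantile normalization, which gives rows of the same rank in every library the same value, and its log2 fold change was then 0. Ldha, lactate dehydrogenase, rose from 1416 ± 156 to 3762 ± 209 TPM, and Eno1, enolase, from 2498 ± 195 to 4919.9 ± 506 TPM. Eef1a1, the elongation factor that delivers aminoacyl-tRNA to the ribosome, rose from 6229 ± 41.8 to 10327 ± 589.9 TPM, and Tpt1, a translationally controlled tumor protein, from 2171 ± 134 to 5575 ± 465 TPM. Ribosomal protein genes were on both sides: Rpl12 and Fau rose from 4754 ± 328 to 6823 ± 1006 TPM and from 3222 ± 149 to 5382 ± 588 TPM, while Rps2 and Rpl41 fell from 6676 ± 1052 to 3419.9 ± 86.7 TPM and from 6594 ± 903 to 3763 ± 467 TPM. Many of these genes have near-identical processed copies in the genome, so their single values are uncertain to the extent that reads were split among copies.

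Of the 10 named losses in TPM 5 were genes of the cytoskeleton or of actin binding. Actb, beta-actin, stood at 3639.96, 3777 and 3957 TPM at day 0 and 919, 1319 and 987 TPM at day 2. Tuba1b, an alpha-tubulin, stood at 2374, 2632 and 2771 TPM at day 0 and 367, 488 and 377 TPM at day 2. Tmsb4x, thymosin beta 4, which binds actin monomers, stood at 2192, 2734 and 3210.1 TPM at day 0 and 673, 724 and 667 TPM at day 2. No libraries of the 2 days overlapped for these genes. Their log2 fold changes were -1.83 (limma, SE 0.14, adjusted p = 6.45e-06), -2.66 (SE 0.16, adjusted p = 1.65e-06) and -1.96 (SE 0.19, adjusted p = 3.47e-05). The gamma-actin gene Actg1 fell from 3509 ± 317 to 1398 ± 149 TPM, the keratin gene Krt8 from 3766 ± 223 to 1447 ± 295 TPM and the peptidyl-prolyl isomerase gene Ppia from 4637 ± 40.5 to 2554 ± 73.9 TPM. Of the S100 calcium-binding proteins, S100a11 fell from 4857 ± 391 to 1725 ± 330.4 TPM and S100a6 from 6905 ± 503 to 3939 ± 354 TPM. Actb, Gapdh and Ppia, which serve as reference genes in many assays, thus moved in opposite directions in TPM between these days.

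Lists of genes outside the usual hypoxia, amino acid response and proliferation sets were then counted against the background of 27.1% higher and 31.9% lower. Members of the nuclear pore, of chromatin assembly and of the DNA damage checkpoint were mostly lower. Of 45 nucleoporins and nuclear transport factors 38 fell and 1 rose, with a median log2 fold change of -0.90. Kpna2, importin alpha 1, fell from 339 ± 29.6 to 27.9 ± 11.4 TPM, and Ndc1, a membrane nucleoporin, from 53.9 ± 8.33 to 7.54 ± 2.44 TPM. Seh1l, shared by the nuclear pore and the GATOR2 complex that senses amino acids for mTORC1, was the member that rose, from 77.2 ± 3.62 to 128 ± 23.3 TPM (log2 fold change 0.70, SE 0.15, limma, adjusted p = 0.00281). The DNA damage checkpoint had 19 falls among 23 genes and a median of -1.11, no member being called higher. Its adaptor gene Clspn went from 21.4 ± 3.12 to 0.894 ± 0.1701 TPM.

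Histone chaperones fell in 15 of 22 cases and rose in 1, with a median of -0.98. Asf1b, a chaperone of new histones during replication, stood at 59.9, 60.3 and 62.8 TPM at day 0 and 4.73, 4.73 and 4.94 TPM at day 2. The libraries of each day were almost level for Asf1b. Chaf1a and Chaf1b, subunits of chromatin assembly factor 1, fell from 61.99 ± 6.76 to 5.83 ± 0.878 TPM and from 56.2 ± 8.64 to 6.45 ± 1.302 TPM. Cohesin and condensin genes moved in both directions: 13 of 22 fell, led by the condensin subunit gene Ncapg, which went from 30.97 ± 3.94 to 2.75 ± 0.487 TPM, and 4 rose, among them the cohesin loader gene Mau2, from 19.6 ± 0.364 to 34.8 ± 5.42 TPM. The median of that list was -0.76. Nuclear lamina genes had 7 falls and 4 rises of 14, with a median of -0.40. The lamin genes Lmnb1, Lmnb2 and Lmna fell, with Lmnb1 from 149.7 ± 11.9 to 14.4 ± 2.89 TPM and Lmna from 768 ± 53.2 to 159 ± 15.7 TPM, and Sun2 and Syne2, which tie the nucleus to the cytoskeleton, rose from 16.5 ± 1.51 to 27.5 ± 4.35 TPM and from 6.09 ± 0.955 to 10.6 ± 0.971 TPM.

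Enzymes that modify and move nucleosomes were split within their lists. Of 17 histone deacetylases and sirtuins 8 rose and 5 fell, with a median of 0.28. Hdac11, the class IV deacetylase, rose from 4.98 ± 0.229 to 26.7 ± 5.46 TPM and Hdac5, a class IIa deacetylase, from 16.5 ± 4.99 to 53.5 ± 20.8 TPM, whereas the class I gene Hdac1 fell from 129 ± 7.18 to 61.4 ± 3.33 TPM. Of 32 remodellers 13 rose and 14 fell, with a median of 0.13. Hells, a helicase needed for DNA methylation, fell from 90.1 ± 29.2 to 6.96 ± 2.33 TPM, and its day 0 libraries were spread, at 59.3, 93.4 and 118 TPM. The remodeller genes Chd6 and Chd2 rose from 3.66 ± 0.128 to 10.7 ± 1.46 TPM and from 5.55 ± 0.132 to 15.4 ± 4.07 TPM, and Smarca2, an ATPase subunit of SWI/SNF, from 12.96 ± 0.3204 to 27.01 ± 1.98 TPM.

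Most centriole and tubulin genes fell, and cilium genes were called in both directions. Of 32 centriole and centrosome genes 24 fell and 1 rose, with a median of -0.96. Cep55, needed for the final cut of cytokinesis, went from 72.005 ± 7.27 to 3.52 ± 0.667 TPM, and Plk4, the kinase that starts centriole duplication, from 25.2 ± 5.17 to 2.32 ± 1.12 TPM. Of 30 tubulins and tubulin-folding factors 22 fell and 1 rose, with a median of -0.77, and the member that rose was the folding cofactor gene Tbce, from 10.1 ± 0.9297 to 18.3 ± 3.31 TPM. Of 40 genes of the cilium and its transport 12 rose and 10 fell, with a median of -0.02. Bbs2 and Ift172 rose from 3.302 ± 0.494 to 9.09 ± 1.14 TPM and from 6.88 ± 0.588 to 15.6 ± 2.01 TPM, and B9d1, a protein of the ciliary gate, fell from 38.4 ± 5.55 to 16.4 ± 1.38 TPM. The sign of that median turned to 0.15 without the 20 most abundant rows.

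More than 50% of the genes on the lists of RNA synthesis fell in the TPM as deposited. Under quantile normalization the falls were 18 of 37 for RNA polymerase II and TFIID, 14 of 32 for Mediator and 18 of 36 for RNA polymerase III and tRNA processing. Of 37 core genes of RNA polymerase II and TFIID 23 fell and 1 rose, with a median of -0.50. Polr2l, a subunit shared by the nuclear polymerases, fell from 66.2 ± 6.14 to 14.1 ± 0.801 TPM, and Gtf2a1, which encodes the large subunits of TFIIA, rose from 8.9999 ± 1.15 to 23.7 ± 7.57 TPM. Mediator genes fell in 18 of 32 cases and rose in 3, with a median of -0.56. Within the kinase module Cdk8 fell from 49.7 ± 4.54 to 25.99 ± 5.13 TPM while its paralog Cdk19 rose from 10.4 ± 0.167 to 25.1 ± 2.45 TPM and Med13l rose from 7.89 ± 0.205 to 20.5 ± 4.32 TPM. Of 36 genes of RNA polymerase III and tRNA processing 21 fell and 3 rose, with a median of -0.49. Trmt61a, a tRNA methyltransferase subunit, fell from 29.2 ± 1.003 to 6.52 ± 3.39 TPM. Maf1, the repressor of RNA polymerase III in poor nutrition, rose from 49.1 ± 5.34 to 86.3 ± 2.601 TPM (log2 fold change 0.80, SE 0.11, limma, adjusted p = 0.000233). Polr3gl and Polr3g, alternative subunits of that polymerase, moved apart, from 6.49 ± 1.32 to 15.002 ± 1.97 TPM and from 14.6 ± 0.222 to 4.97 ± 0.638 TPM.

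Genes for turnover and marking of mRNA moved in both directions. Decapping factors and exonucleases fell in 17 of 28 cases and rose in 4, with a median of -0.89. Lsm7, of the Lsm ring, fell from 361 ± 25.3 to 71.5 ± 21.4 TPM, and the exosome subunit gene Exosc2 from 83.7 ± 4.98 to 19.8 ± 2.77 TPM. Xrn1, the cytoplasmic exonuclease, rose from 4.88 ± 0.589 to 9.36 ± 2.07 TPM, and Dcp1b, a decapping cofactor, from 0.905 ± 0.171 to 4.95 ± 1.37 TPM. Of 19 antiproliferative BTG/TOB and CCR4-NOT genes 6 rose and 4 fell, with a median of 0.09. Btg1, which links deadenylation to quiescence, stood at 58.1, 64.03 and 57.8 TPM at day 0 and 228, 244 and 181 TPM at day 2. Btg1 rose in all 3 day 2 libraries, and Cnot9 fell from 49.05 ± 6.93 to 21.2 ± 2.63 TPM. Of 19 genes of RNA m6A methylation 3 rose and 5 fell, with a median of -0.15, and the demethylase gene Alkbh5 rose from 41.01 ± 1.91 to 117 ± 8.39 TPM while the reader gene Igf2bp1 fell from 6.85 ± 1.21 to 1.64 ± 0.715 TPM. Stress granule and eIF2 phosphatase genes had 6 rises and 6 falls of 22, with a median of -0.13. Ppp1r15a (GADD34), which directs the dephosphorylation of eIF2, rose from 17.6 ± 1.28 to 57.5 ± 9.61 TPM, and G3bp1, a stress granule scaffold, fell from 281 ± 16.4 to 98.6 ± 13.1 TPM.

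Genes of protein glycosylation fell more often than they rose, and ubiquitin ligase genes rose more often than they fell. Of 30 genes of the oligosaccharyltransferase and the dolichol pathway, which put sugar chains on new proteins, 20 fell and 2 rose, with a median of -0.64. Alg8 fell from 42.2 ± 4.16 to 13.2 ± 3.55 TPM and Alg2 rose from 13.9 ± 1.07 to 25.2 ± 3.92 TPM. Genes that make or use sugar nucleotides had 12 falls and 6 rises of 24, with a median of -0.27. Pgm2, a phosphoglucomutase, rose from 43.2 ± 3.87 to 229 ± 27.3 TPM and Ogt, the O-GlcNAc transferase, from 29.95 ± 1.37 to 107 ± 22.7 TPM, while Gmppb, which makes GDP-mannose, fell from 17.2 ± 1.58 to 4.76 ± 1.29 TPM. Cullin-RING and F-box ligases leaned upward, with 17 rises and 8 falls of 45 and a median of 0.21. Klhl24, a cullin 3 adaptor, stood at 2.73, 2.19 and 1.48 TPM at day 0 and 34.4, 37.9 and 27.9 TPM at day 2. Its log2 fold change of 3.47 (limma, SE 0.18, adjusted p = 9.9e-07) was the largest on that list, and Fbxl20 rose from 3.57 ± 0.118 to 25.7 ± 1.59 TPM. Falls on the list were led by Fbxo5, the inhibitor of the anaphase-promoting complex, and Skp2, which targets the inhibitor p27, from 53.4 ± 10.8 to 5.76 ± 0.03101 TPM and from 22.8 ± 2.07 to 3.58 ± 0.788 TPM. Of 41 deubiquitinases 11 rose and 12 fell, with a median of -0.14, and Usp11 rose from 1.38 ± 0.346 to 5.75 ± 0.967 TPM while Usp1, which acts in DNA repair, fell from 68.99 ± 8.895 to 14.5 ± 2.95 TPM. Of 41 genes of COPI, COPII and Golgi tethers 6 rose and 12 fell, with a median of -0.05. Copz2, a coat subunit, rose from 1.22 ± 0.488 to 8.997 ± 1.81 TPM, and Sec13 fell from 180.1 ± 6.22 to 64.8 ± 14.8 TPM.

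Metabolic lists outside glycolysis were varied. Odc1, the ornithine decarboxylase that starts polyamine synthesis, stood at 467, 576 and 575 TPM at day 0 and 42.5, 113 and 63.6 TPM at day 2. The groups did not overlap, and day 2 replicate 2 was the highest of its day. Srm, spermidine synthase, fell from 369.6 ± 11.2 to 61.5 ± 23.2 TPM, whereas the spermine oxidase gene Smox and the antizyme gene Oaz2 rose from 7.11 ± 0.842 to 20.4 ± 3.46 TPM and from 18.003 ± 1.39 to 33.2 ± 1.55 TPM. In all 9 of 20 genes of polyamine and S-adenosylmethionine metabolism fell and 5 rose, with a median of -0.46. The peroxisome biogenesis list had 7 rises of 22, near the share of 27.1% among all genes, and 1 fall, with a median of 0.33. Of the 16 tested genes of the Pex stem 4 rose and 0 fell. Ech1, an enzyme gene on that list outside the Pex stem, rose from 71.01 ± 4.64 to 165 ± 24.1 TPM. Pxmp2, a channel of the peroxisomal membrane, fell from 10.9 ± 2.78 to 2.36 ± 1.41 TPM. Of 27 sphingolipid genes 7 rose and 7 fell, with a median of 0.04, led by the ceramidase gene Asah2 (from 3.89 ± 0.883 to 8.296 ± 0.0711 TPM) and the sphingomyelinase gene Smpd4 (from 27.7 ± 2.16 to 10.2 ± 1.96 TPM).

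Signalling lists held opposite moves among related members. TGF-beta and BMP genes had 14 rises and 3 falls of 32, with a median of 0.28. Ltbp4, which stores latent TGF-beta in the matrix, rose from 10.1 ± 0.374 to 50.7 ± 13.4 TPM, the receptor gene Acvr1b from 12.9 ± 0.376 to 29.6 ± 4.92 TPM and the signal transducer gene Smad3 from 27.8 ± 0.145 to 59.8 ± 4.87 TPM. The BMP target Id1 fell from 251 ± 26.7 to 66.6 ± 9.98 TPM. Of 26 Wnt genes 10 rose and 4 fell, with a median of 0.24. Of the Wnt ligands Wnt7a fell and Wnt7b rose. Wnt7a stood at 63.7, 68.6 and 74.3 TPM at day 0 and 11.2, 28.8 and 12.8 TPM at day 2. Wnt7b stood at 6.56, 5.84 and 4.32 TPM at day 0 and 14.7, 28.8 and 14.2 TPM at day 2. Day 2 replicate 2 was the highest of its day for both genes, and neither overlapped between the days. Of 27 Notch genes 12 rose and 6 fell, with a median of 0.17. The DNA-binding partner gene Rbpj rose from 33.8 ± 0.9297 to 102 ± 29.6 TPM and the ligand gene Dll1 from 0.859 ± 0.149 to 4.77 ± 1.87 TPM, and the ligand gene Jag1 fell from 58.3 ± 7.96 to 25.97 ± 3.55 TPM.

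Of 40 RAS, RAF and MAP kinase genes 9 rose and 12 fell, with a median of 0.10. That order turned under other scalings, with 13 higher and 11 lower under median-of-ratios scaling, 13 and 6 under quantile normalization and 15 and 9 without the 20 most abundant rows. Map2k1 (MEK1) rose from 62.7 ± 2.41 to 199.5 ± 38.2 TPM and Map2k3 fell from 111 ± 4.76 to 26.1 ± 5.22 TPM. Hras fell from 79.7 ± 2.33 to 24.2 ± 3.52 TPM. Of 22 Hippo genes 3 rose and 6 fell, with a median of -0.15, and among the TEAD factors Tead2 rose from 15.8 ± 0.9097 to 27.5 ± 4.56 TPM and Tead4 fell from 27.9 ± 0.9102 to 5.33 ± 0.371 TPM. Of 31 channel genes 7 rose and 10 fell, with a median of -0.18. The calcium release channel genes Itpr2 and Itpr3 rose from 0.941 ± 0.257 to 8.26 ± 0.931 TPM and from 51.99 ± 3.12 to 102 ± 23.1 TPM, and the potassium channel gene Kcnk1 fell from 10.5 ± 3.25 to 1.93 ± 0.8297 TPM. Of 29 genes of innate sensing and cell death 7 rose and 11 fell, with a median of -0.14. The decoy receptor genes Tnfrsf23 and Tnfrsf22 rose from 24.1 ± 3.102 to 111 ± 21.8 TPM and from 25.3 ± 4.02 to 68.7 ± 9.61 TPM, and Casp9 rose from 6.59 ± 1.03 to 13.3 ± 1.201 TPM. Tnfrsf12a, the receptor for TWEAK, fell from 724 ± 81.8 to 348 ± 69.9 TPM. The medians of 8 lists lay within 0.30 of 0 and changed sign under at least 1 other scaling: cilium, COPI and COPII, deubiquitinases, sugar nucleotides, Hippo, innate sensing, m6A and stress granule. More genes rose than fell under at least 1 other scaling among the deubiquitinases, the remodellers, COPI and COPII and innate sensing.

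**Figure D4:**
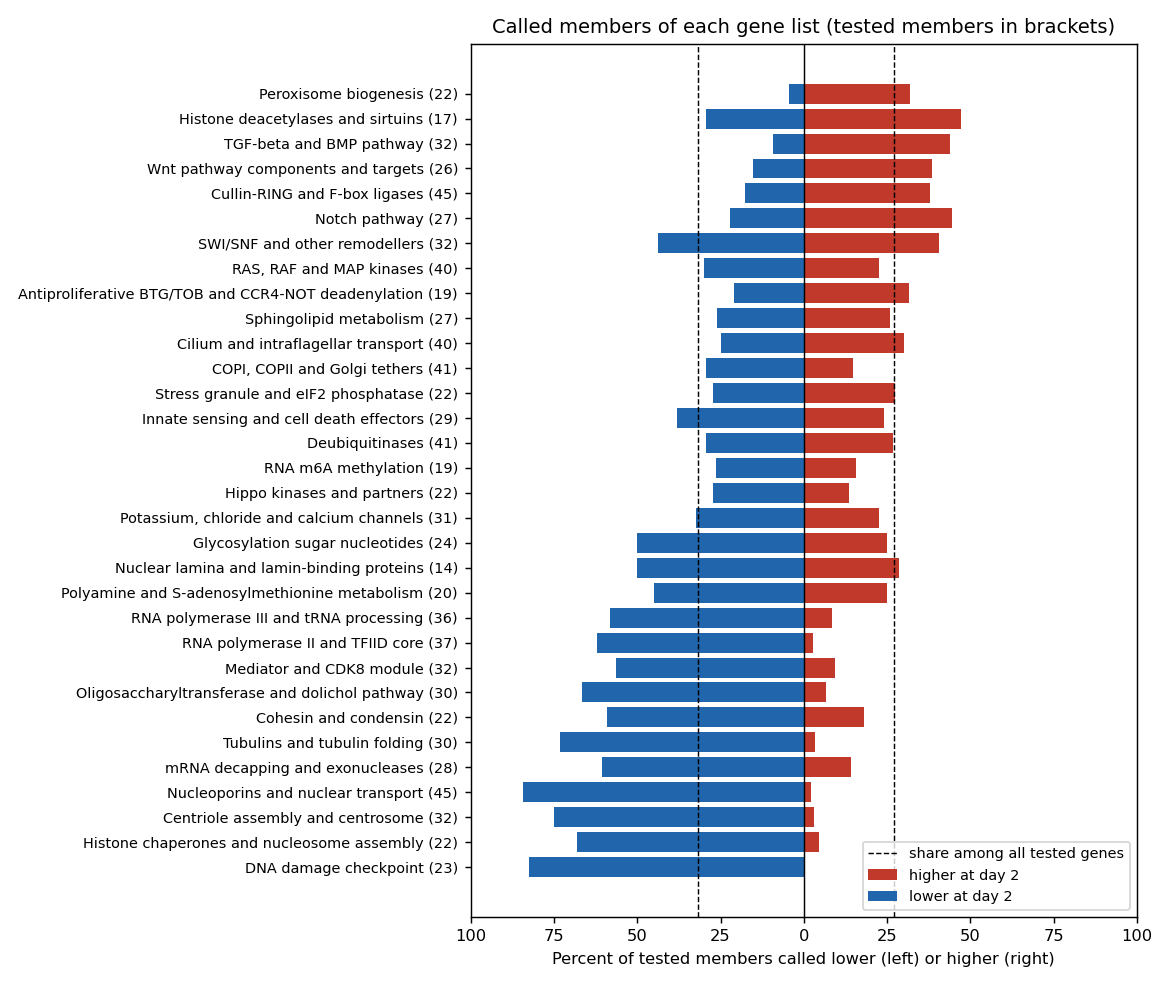
Percent of the tested members of each of 32 gene lists called lower (blue, to the left) or higher (red, to the right) at day 2 (limma, adjusted p under 0.05), with the number of tested members in brackets. Dashed lines mark the shares among all tested genes, 31.9% lower and 27.1% higher. Lists are ordered by their median log2 fold change, from -1.11 at the bottom to 0.33 at the top.

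Families that share a name stem gave a view across families without hand-made lists. Stems of at least 10 tested genes numbered 139 and held 3668 genes. All 10 Utp genes, of the processome that shapes the small ribosomal subunit, fell, with a median of -0.89 and Utp20 from 37.98 ± 5.55 to 14.8 ± 5.31 TPM. Of 19 Nup genes 18 fell, with a median of -1.15 and Nup35 from 35.5 ± 0.247 to 7.11 ± 1.66 TPM. Mitochondrial ribosomal protein genes fell in 27 of 29 cases for the small subunit (Mrps, median -0.81) and in 41 of 49 cases for the large (Mrpl, median -0.95, with 1 rise). Genes of the inner membrane translocase (Timm) fell in 13 of 14 cases, with Timm8a1 from 77.2 ± 12.3 to 19.5 ± 5.45 TPM. Exosome genes (Exosc) fell in 9 of 10, with Exosc6 from 159 ± 5.92 to 27.1 ± 6.57 TPM, and Mcm genes in 9 of 10, with Mcm10 from 37.3 ± 5.996 to 1.88 ± 0.448 TPM. The stems Mrpl, Psmd (proteasome, 12 falls of 14) and Srsf (splicing factors, 8 of 10) were picked after their values were seen. Mitochondrial ribosomal protein names together held 0.765% ± 0.0233 of TPM at day 0 and 0.437% ± 0.0343 at day 2.

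The upward stems were of another kind. The Kdm stem of lysine demethylases had 12 rises and 2 falls of 16, with Kdm4b from 7.896 ± 1.52 to 51.8 ± 10.1 TPM and Kdm5b from 9.51 ± 0.125 to 60.6 ± 9.33 TPM. The Akr stem of aldo-keto reductases had 7 rises and 2 falls of 11, with Akr1b7 from 0.405 ± 0.192 to 5.82 ± 1.01 TPM. The Dennd stem, of exchange factors for Rab proteins, had 8 rises of 13 and no call downward, with Dennd4b from 2.64 ± 0.361 to 8.37 ± 0.825 TPM. The Parp stem of ADP-ribosyltransferases had 7 rises and 2 falls of 11, with Parp16 from 0.9897 ± 0.462 to 7.62 ± 0.4004 TPM, or 5 and 2 under quantile normalization. The Fbxo stem had 18 rises and 6 falls of 30, with Fbxo2 from 16.8 ± 3.08 to 58.7 ± 20.3 TPM and Fbxo44 from 5.37 ± 0.363 to 18.96 ± 7.27 TPM. The Unc stem, which joins unrelated proteins under a common worm name, had 7 and 2 of 10. For every stem named here, the sign of the median was the same under the 3 other scalings.

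Some genes with a common name stem moved in opposite directions. In 58 of 1635 name families 83 pairs had a member called higher and a member called lower, each by at least 2-fold. Thymidine kinases were among them. Tk1, the cytosolic enzyme of S phase, stood at 183, 209 and 222 TPM at day 0 and 9.76, 9.104 and 11.4 TPM at day 2. Tk2, the mitochondrial enzyme, stood at 9.27, 9.45 and 9.03 TPM at day 0 and 20.2, 24.5 and 21.4 TPM at day 2. The days did not overlap for either gene, and the log2 fold changes were -4.22 (limma, SE 0.16, adjusted p = 2.64e-07) and 1.16 (SE 0.11, adjusted p = 2.44e-05). Adenylate kinases differed in the same way: Ak4, a mitochondrial form known as a HIF target, rose from 2.87 ± 0.583 to 32.9 ± 1.203 TPM, and Ak6 fell from 53.7 ± 4.55 to 16.6 ± 2.501 TPM. Of the Nek kinases Nek2, which separates centrosomes in mitosis, fell from 57.5 ± 2.83 to 2.19 ± 0.143 TPM, and Nek1 rose from 4.805 ± 0.455 to 15.3 ± 1.19 TPM. Of the Mxd genes, whose products oppose Myc at its partner Max, Mxd1 and Mxd4 rose from 4.93 ± 0.258 to 27.97 ± 14.3 TPM and from 6.58 ± 1.801 to 30.7 ± 3.01 TPM, and Mxd3 fell from 10.6 ± 1.74 to 0.969 ± 0.425 TPM. The day 2 libraries of Mxd1 stood at 44.5, 20.5 and 18.9 TPM, so that replicate 1 was the highest. The CDK inhibitor genes Cdkn2b and Cdkn1b rose from 67.9 ± 14.4 to 235 ± 26.9 TPM and from 51.5 ± 1.37 to 131 ± 20.2 TPM, while Cdkn3, which encodes a phosphatase, fell from 38.3 ± 5.35 to 3.23 ± 1.27 TPM. The lipoprotein receptor gene Lrp1 rose from 4.99 ± 0.839 to 51.1 ± 20.7 TPM and Lrp8 fell from 15.3 ± 1.21 to 4.57 ± 1.24 TPM. Prelid2 and Prelid3b, of a family that moves lipids within mitochondria, went from 3.93 ± 0.923 to 46.8 ± 5.46 TPM and from 109 ± 14.9 to 33.6 ± 7.78 TPM. Dhrs7 rose and Dhrs13 fell among the short-chain dehydrogenases, from 15.7 ± 2.103 to 76.6 ± 8.67 TPM and from 33.8 ± 4.11 to 5.62 ± 0.746 TPM. Tcp11l1 fell from 19.7 ± 1.27 to 5.77 ± 1.23 TPM against the rise of Tcp11l2.

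**Figure D5:**
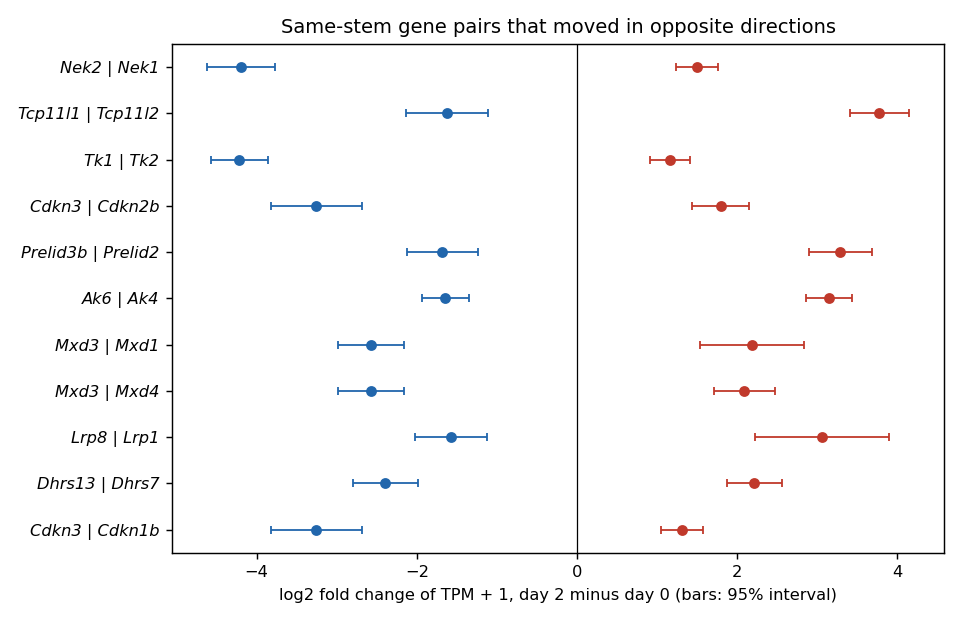
Pairs of genes with a common name stem, 11 of the 12 with the widest gap between a fall (blue, left) and a rise (red, right). Points are log2 fold changes of TPM + 1, day 2 minus day 0, and bars are 95% intervals from limma, with 3 libraries a day. Pairs were picked from called genes, so by that choice no interval reaches 0. The gap is widest for Nek2 and Nek1.

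Some genes crossed from near absence to a measurable level. Genes under 0.5 TPM in all 3 libraries of day 0 and at 2 TPM or more in all 3 of day 2 numbered 47, of which 39 had an established name, and the reverse held for 20 genes, of which 15 had a name. Aire, known for driving tissue antigens in the thymus, was listed at 0 in all 3 day 0 libraries and stood at 6.71, 7.44 and 6.63 TPM at day 2. The cathepsin gene Ctsf stood at 0.296, 0.161 and 0.0898 TPM at day 0 and 9.603, 10.01 and 8.07 TPM at day 2. Gpr146, a receptor gene, stood at 0.305, 0.255 and 0.244 TPM at day 0 and 12.3, 7.08 and 6.95 TPM at day 2. The chromatin remodeller gene Chd5, mainly known from neurons, stood at 0.297, 0.426 and 0.357 TPM at day 0 and 4.36, 4.63 and 4.14 TPM at day 2. Gpr146 was highest in day 2 replicate 1, and the other genes were even across the day 2 libraries. Plcxd3, Plekha4 and Col20a1 stood between 4.87 and 7.11 TPM in all day 2 libraries. A further 4 genes are named after their values were seen. The peptide hormone gene Kiss1 and its receptor gene Kiss1r, at most 0.188 TPM in any day 0 library, stood between 2.11 and 2.90 TPM at day 2. The digestive enzyme genes Amy1 and Try5, at most 0.263 TPM at day 0, stood between 3.06 and 7.66 TPM. The acinar markers did not rise as a set: 6 of 8 stayed under 1 TPM in all 6 libraries. Cela1 rose near the floor, and Prss2 was at most 0.497 TPM at day 2, below all its day 0 libraries.

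Switches in the other direction included genes known from dividing cells and others. The helicase gene Pif1 stood at 13.7, 11.02 and 12.2 TPM at day 0 and 0.227, 0.188 and 0.233 TPM at day 2. Kif14, a motor of cytokinesis, stood at 8.097, 8.79 and 10.9 TPM at day 0 and 0.231, 0.248 and 0.288 TPM at day 2. The citron kinase gene Cit and the repair polymerase gene Polq went from 6.48 ± 0.143 to 0.474 ± 0.0156 TPM and from 5.93 ± 0.682 to 0.352 ± 0.112 TPM. Hist1h3c, a replication-dependent histone gene, stood at 7.05, 7.26 and 5.49 TPM at day 0 and was listed at 0 in all 3 day 2 libraries. Itgb6, the epithelial integrin chain that activates TGF-beta, stood at 7.15, 7.37 and 9.45 TPM at day 0 and 0.446, 0.458 and 0.441 TPM at day 2. Libraries of a day were close together for all of these, and none overlapped between the days, which the definition of a switch requires. Mns1 went from 14.1 ± 0.972 to 0.333 ± 0.0896 TPM and Lrr1 from 9.56 ± 1.67 to 0.174 ± 0.0682 TPM.

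Long noncoding RNAs and genes with long transcripts rose more often than they fell. By the gene types of GENCODE M21, in which 98.6% of tested genes were found, 41.3% of 155 antisense genes rose and 5.16% fell. Among 182 lincRNAs the shares were 39.0% and 8.24%. Of 29 RNAs from bidirectional promoters 18 (62.1%) rose and 0 fell. Of 91 small nucleolar RNA rows 1 (1.10%) rose and 33 (36.3%) fell, and the falls were near the 31.9% among all tested genes. Of 11639 protein-coding genes 26.8% rose and 33.6% fell. Genes of low level rose more often than others in general, and the filter let in genes that passed only through their day 2 or day 14 libraries. The strand of the libraries is not given, so reads of an antisense gene and its partner cannot be told apart. Under quantile normalization 41 antisense genes rose and 12 fell, against 64 and 8 here. Of the small nucleolar RNA rows 1 rose and 19 (20.9%) fell under that scaling. In protein-coding genes the 2327 with the longest transcripts, from 5008 bases, had 35.9% that rose and 23.5% that fell, and the 2329 with the shortest, up to 1727 bases, had 21.5% and 41.0%. Their median log2 fold changes were 0.17 and -0.23, and the order held under the 3 other scalings, at 0.33 and -0.09 without the 20 most abundant rows.

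Day 2 libraries differed more among themselves than day 0 libraries. The median SD between the 3 libraries of a day was 0.119 at day 0 and 0.215 at day 2 on the log2(TPM + 1) scale. Correlations across genes ran from 0.9751 to 0.979 within day 0, from 0.949 to 0.962 within day 2 and from 0.841 to 0.880 between the days, where genes are not independent replicates. The first principal component took 73.3% of the variance and separated the days, and the second, at 9.54%, set day 2 replicate 1 apart from day 2 replicate 2. Whether the libraries differed in cells or in handling was not tested.

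Among the genes with the widest spread at day 2 were stress and immediate early genes. Jun, an immediate early transcription factor gene, stood at 20.2, 22.3 and 19.4 TPM at day 0 and 73.3, 19.9 and 19.4 TPM at day 2. Dusp1, a phosphatase of MAP kinases, stood at 17.9, 17.4 and 13.5 TPM at day 0 and 129, 55.9 and 29.3 TPM at day 2. Elf3, an epithelial transcription factor gene, stood at 50.997, 32.9 and 43.8 TPM at day 0 and 152, 33.98 and 65.9 TPM at day 2. Replicate 1 was the highest day 2 library for these 3 genes, and only Dusp1 passed (limma, log2 fold change 1.83, SE 0.45, adjusted p = 0.00685). Txnip, which restrains glucose uptake, stood at 38.8, 47.4 and 57.7 TPM at day 0 and 13.3, 55.9 and 89.6 TPM at day 2. Chac1, an enzyme that cleaves glutathione and a known ATF4 target, stood at 6.83, 2.26 and 2.93 TPM at day 0 and 15.96, 63.6 and 67.2 TPM at day 2. Replicate 1 was the lowest day 2 library for both, and Chac1 passed while Txnip did not (limma, adjusted p = 0.000859 and 0.822). Without day 2 replicate 1 the log2 fold changes were -0.07 for Jun, 0.17 for Elf3 and 0.57 for Txnip, none of them called, against 0.55, 0.73 and -0.21 with it. Sorbs2, which stood at 113, 141 and 141 TPM at day 0 and 41.4, 173 and 71.4 TPM at day 2, did not pass with all libraries (limma, adjusted p = 0.201) and passed without day 2 replicate 2, at a log2 fold change of -1.25. Rps27 stood at 902, 575 and 484 TPM at day 0 and 639, 87.8 and 415 TPM at day 2, and its retrogene copy Rps27rt at 2829.7, 3158 and 2716 TPM at day 0 and 5815, 7501 and 4296 TPM at day 2. Rps27 did not pass and Rps27rt rose in TPM. Rps27 was lowest and Rps27rt highest in day 2 replicate 2, and how reads were divided between the copies was not tested. Bc1, a noncoding RNA gene, was listed at 0 in replicate 3 of each day and stood between 21.1 and 51.9 TPM in the other 4 libraries.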

How the data were processed

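RNA of 6620c1 cells was sequenced at day 0, day 2 and day 14, with 3 libraries at each time. Gene values were deposited by the authors as TPM, made with Salmon per the submitters' processing notes. The version, genome build, annotation and strand setting were not given in any source used here. TPM are scaled to the same total in each library, so they hold no read totals, depth is unknown, and a rise of abundant rows lowers all others.

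Rows with at least 1 TPM in at least 3 of the 9 libraries were kept (12693 of 24493). Values were taken as log2(TPM + 1), and fold changes are on that scale, which understates those of low genes. All 9 libraries entered a single fit with limma 3.58.1 in R 4.3.3 (moderated variance with a trend, Benjamini-Hochberg adjustment), with calls at an adjusted p under 0.05 for day 2 minus day 0. The fit was tested on simulated data. Per-library summaries were compared by exact permutation, two-sided, over 20 splits.

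Genes were named by rule. The rule took the 15 largest rises and falls without overlap at a mean of 10 TPM or more, and the 10 largest gains and losses of mean TPM. It also took the extremes of each list, the 2 leading members of 6 upward and 6 downward name stems, and the 12 widest split pairs. The last parts were the 8 widest day 2 spreads at 20 TPM or more and the 8 largest switches each way. Predicted and small RNA names and 55 widely described genes were left out of naming, which gave 180 genes. A further 35 genes, members of the lists beyond the extremes and Kiss1, Kiss1r, Amy1 and Try5, were named after their values were seen. The members, the 32 gene lists and the 6 marker lists were chosen with earlier results of these data known. Gene types and transcript lengths came from GENCODE M21 by symbol, and promoter windows from RefSeq (GRCm38.p6). A filter of the pairs on protein identity was not run, and a few of the results, 1 of the 12 pairs among them, are not reported here.

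Alternatives were other pseudocounts, low-value filters, scalings, variance priors, the 6 libraries alone, the replicate number as a block and each library left out. Removal of small and structural RNA rows was added after the data were seen.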

Additional observations from a re-analysis of the deposited data

How the results depend on the processing

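Of 180 genes named by rule 174 were called, and 169 of these were called in the same direction under every alternative in which they were tested. Of the 180, 160 were tested at a mean of at least 5 TPM and 173 without the 20 most abundant rows. The exceptions were Gapdh (quantile normalization), Atrx, Cep120, Cd68 and Cela1, whose small differences lost their call under several alternatives, some of them with a single library left out. The naming rule picks mainly extremes, so these counts do not stand for all calls. Of all 7484 calls, 83.5% kept their call and direction under quantile normalization and 84.4% without day 0 replicate 2. With a library left out, genes higher ran from 2900 to 3483 and genes lower from 3456 to 4176, against 3438 and 4046. The number of genes higher by at least 2-fold went from 1288 to 585.0 with a pseudocount of 5, which shrinks the log2 fold changes of low genes. The gain in the share of the 100 most abundant rows was 11.3 percentage points as deposited, 8.14 without microRNA, small nucleolar and structural RNA rows and 6.70 without the 20 most abundant rows. The gain in rows of at least 1 TPM was 464.7 as deposited and 595 and 696 under the same removals. The cause of these shifts was not tested.

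Genes of wide spread reversed. The log2 fold change of Bc1 ran from -1.08 (without day 0 replicate 3) to 2.16 (without day 2 replicate 3) around 0.43, and was -0.70 and -0.16 without day 2 replicates 1 and 2. That of Jun ran from -0.0655 (without day 2 replicate 1) to 0.87 (without day 2 replicate 3). That of Txnip was 0.0506 under quantile normalization and ran from -0.76 (without day 2 replicate 3) to 0.57 (without day 2 replicate 1). The cause was not tested. Rps27 had a log2 fold change of -0.29 without day 2 replicate 2 against -1.14 with all libraries.

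The labels number the libraries of each day, and deviations of same-numbered libraries were at most weakly related. Their r ran from -0.07 to 0.32 over 9 pairs, against -0.27 to 0.22 over 18 pairs of different number. Of 9 libraries 4 were closest to their own number, so whether the numbers mark pairs stays unknown. With the replicate block 3469 genes were higher and 4113 lower. Rps27 passed under the block (limma, adjusted p = 0.0482) and Cd68 and Cep120 did not (0.0567 and 0.0635). Without read totals, counting error at low TPM cannot be given.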

Other observations

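Keratin genes that follow each other in the order of the tested genes fell together, and so did a group of serpin genes. In the gene order of GENCODE M21, 66 runs of at least 3 protein-coding genes, each next to the other among those tested, were called in the same direction by at least 2-fold, 46 lower and 20 higher, and those named here were chosen after their values were seen. The longest held 6 genes, Gmds, Wrnip1, Serpinb1a, Serpinb6b, Serpinb9 and Serpinb9b, with a median log2 fold change of -1.51. The keratin genes Krt80, Krt7, Krt79 and Krt8 had a median of -1.28. Cav2, Cav1 and Met, the caveolins and the receptor of hepatocyte growth factor, had a median of -1.85.

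Some of the 20 upward runs held enzymes that conjugate foreign compounds, beside other genes. Gstt3, Gstt1, Gstt2, Mif and Derl3 rose together with a median of 1.14, and Ugt2b34, Ugt2b35, Ugt2b36 and Sult1d1 with a median of 1.95. The F-box genes Fbxo6, Fbxo44 and Fbxo2, neighbours of 1 family, had a median of 1.59. Bbs2, of the cilium, lay beside the metallothionein genes Mt2 and Mt1, with a median of 1.51 over the 3. Many neighbours are copies of each other, so their reads may be shared, and how many such runs arise without regard to position was not tested.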
